A study of Mus musculus with 4 samples.

Results

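The genes described here are the integrins and the core proteins of focal adhesions in SVEC4-10 cells, a mouse endothelial line from lymph node vessels that was transformed with SV40. The members were taken from a fixed list of 33 genes, 20 of them integrin subunits, by their platform symbol. Of these, 30 had a probe set with their symbol alone, out of 18193 genes measured in all, and Itga11, Fermt1 and Ptk2 were not analysed here. At or above a floor of 5.41 on the log2 scale, the median of the whole table, lay 25 of the 30 members on at least 1 array.

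Each of the 4 groups had 1 array, hybridised with messenger RNA pooled from 3 biological replicates. The untreated array held wild-type SVEC4-10 cells without vector. Per its label, the array labelled vector held cells transduced with the pLENTI6/Block-iT lentiviral vector free of insert. On the other arrays, also per the labels, were cells whose vector expressed a short hairpin RNA, directed at Mical2 on one and at Mical3 on the other. Blasticidin was used to select all transduced cells. All groups shared the cell line and its SV40 transformation. Pooling hides the spread between replicates, so nothing could be tested and p-values are not given.

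Mical2 encodes an actin-oxidising enzyme, and the study asked which transcripts change in its absence. Its 2 probe sets lay near the floor. One read 5.33 on the untreated array, 4.64 on the array labelled vector, 5.53 on the array labelled Mical2 and 6.0 on that labelled Mical3, and the other 5.60, 5.14, 5.53 and 6.08. Mical3 read 7.39, 7.29, 6.83 and 7.24 with the arrays in that order. A drop of 2-fold was thus seen for neither target on the array labelled for it. Both Mical2 readings were lowest on the array labelled vector, and Mical3 was lowest on the array labelled Mical2. The target levels do not bear out these labels, and whether arrays were exchanged was not tested. Both Mical2 readings on the array labelled vector were below the floor, so their differences are only bounds. The words hairpin, vector and control stand here for the labels alone. Each direction drawn from the arrays labelled vector, Mical2 and Mical3 rests on those labels. Of 12 endothelial markers, 3 (Kdr, Esam and Egfl7) lay at or above the floor on every array, while Pecam1, Cdh5, Tek, Tie1 and Vwf lay below it on every array. The mean log2 level of the endothelial markers was between 4.85 and 4.93 on the 4 arrays. Of 11 fibroblast and mural markers 8 reached the floor, and their mean log2 level over all 11 was 9.03 on the untreated array, 7.58 on the array labelled vector, 8.94 on the array labelled Mical2 and 7.0 on that labelled Mical3. Pdgfra, the most variable of them between the control arrays, read 10.40, 6.16, 9.88 and 7.07 in that order, and Pdgfrb 10.28, 8.13, 10.71 and 3.55. Dcn differed from these, at 12.36, 10.52, 12.27 and 12.79. Of the 8, 5 were below the untreated array on the array labelled Mical3 and 3 above it. Of the epithelial markers, 3 of 6 reached the floor. Krt8 read 8.27, 6.42, 8.32 and 8.38 and Krt18 5.85, 4.84, 6.63 and 7.41, while Epcam ranged from 6.60 to 7.10 and Cdh1 lay below the floor. Among 7 leukocyte markers, Csf1r, Cd3e, Spi1, Lyz2 and Cd14 reached the floor and Ptprc did not, with Cd14 at 7.04, 5.75, 8.26 and 6.39. Flt4, a lymphatic endothelial receptor, read 9.18, 8.90, 7.66 and 7.55. Pdpn, another lymphatic marker, read 12.29, 12.50, 11.67 and 12.47, so it was not lower than in untreated cells on the array labelled Mical3. The lymphatic markers Prox1 and Lyve1 lay below the floor. The part of these differences in the results below was not tested, and in such cell populations fewer cells of a type cannot be told apart from less RNA per cell.

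Integrins are receptors for extracellular matrix, each built of an alpha and a beta subunit that are assembled before they reach the cell surface. Talins and kindlins bind the beta tail and activate the receptor. Focal adhesion kinase, Src, paxillin and p130Cas then relay signals, and the complex of integrin-linked kinase (ILK), PINCH and parvin links the receptor to actin. In endothelial cells integrins carry adhesion to the basement membrane and to fibronectin, and they are needed for the growth of vessels.

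The word called is used for a gene that differed by at least 2-fold, that is by 1 on the log2 scale, provided that its brightest array in the comparison reached the floor. A hairpin array had to differ in the same direction from the array labelled vector and from the untreated array. All values are log2 levels or log2 differences after RMA unless a fold is named. Levels of different genes are not set against each other, because each probe set has its own response.

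Itgb8 fell below the floor on both hairpin arrays, Itga6 was higher and Itgb5 lower on the array labelled Mical3, and Itga1 and Itgb1 were lowest on the array labelled vector.

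The 5′ sequences of 4 members are shown to let these genes be compared at their promoters, and Fermt2 among them was not called. Itgb8 and Itgb5 are the beta subunits called lower on the array labelled Mical3, and Itgb1 and Fermt2 had their highest level there and their lowest on the array labelled vector. Each run is the 250 bases before the annotated start, from RefSeq on GRCm38.p6, written 5′ to 3′ on the strand of the gene. Itgb8 is at chr12:119238277-119238526 on the minus strand, Itgb5 at chr16:33829415-33829664 on the plus strand, Itgb1 at chr8:128685404-128685653 on the plus strand and Fermt2 at chr14:45530066-45530315 on the minus strand. Capitals mark every match, on either strand, to the GC box GGGCGG, the TEAD core GGAATG, the TATA box TATAAA or the CArG box bound by SRF.
Itgb8: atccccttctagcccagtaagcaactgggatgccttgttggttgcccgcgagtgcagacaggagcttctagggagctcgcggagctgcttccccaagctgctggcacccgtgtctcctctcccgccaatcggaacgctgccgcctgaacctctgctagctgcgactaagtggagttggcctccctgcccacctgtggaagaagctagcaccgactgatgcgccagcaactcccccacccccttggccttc
Itgb5: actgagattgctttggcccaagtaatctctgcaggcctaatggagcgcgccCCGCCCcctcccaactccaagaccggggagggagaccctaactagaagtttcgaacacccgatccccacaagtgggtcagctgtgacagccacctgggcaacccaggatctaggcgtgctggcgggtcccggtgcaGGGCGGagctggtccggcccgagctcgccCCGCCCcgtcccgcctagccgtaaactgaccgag
Itgb1: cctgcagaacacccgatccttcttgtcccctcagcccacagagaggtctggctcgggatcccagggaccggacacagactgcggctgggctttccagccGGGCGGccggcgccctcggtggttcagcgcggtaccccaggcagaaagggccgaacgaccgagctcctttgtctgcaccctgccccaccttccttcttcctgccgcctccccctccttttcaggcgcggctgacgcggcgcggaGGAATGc
Fermt2: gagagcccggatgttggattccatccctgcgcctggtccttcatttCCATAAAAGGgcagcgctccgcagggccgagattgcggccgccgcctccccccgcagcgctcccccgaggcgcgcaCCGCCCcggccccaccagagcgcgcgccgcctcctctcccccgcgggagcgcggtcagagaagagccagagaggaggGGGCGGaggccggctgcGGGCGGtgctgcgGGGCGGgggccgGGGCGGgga

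The Itgb8 run held no match to any of the 4 motifs. The Itgb5 run held 3 GC boxes, and the Itgb1 run held 1 GC box and 1 TEAD core. Fermt2 had 5 GC boxes and a CArG box between 204 and 195 bases before the start. No matches to different motifs overlapped in these runs. Promoter entries were found for 24 of the 33 members, with 30 starts. A CArG box was in 2 of these 30 windows, those of Fermt2 and Itgb6, and in 1.47% of all 32851 windows of this length. The GC box was in 15 of the 30 windows and in 32.7% of all windows, the TEAD core in 2 and in 12.6%, and the TATA box in 1 and in 12.4%. The median GC content was 63.2% in the members' windows and 52.4% in all windows. A match describes the letters and shows no binding.

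Among the beta subunits, Itgb8 varied most. It encodes the partner of alpha v in a receptor for latent TGF-beta. Its level was 7.03 on the untreated array, 6.25 on the array labelled vector, 4.53 on the array labelled Mical2 and 3.15 on that labelled Mical3. Both hairpin arrays were thus below the floor and both control arrays above it. A reading below the floor gives only a bound. Set against the floor, Itgb8 was at least 3.07-fold lower on each hairpin array than on the untreated array, and at least 1.79-fold lower than on the array labelled vector. The differences as read were -1.72 and -2.50 on the array labelled Mical2, from the vector and the untreated array, and -3.10 and -3.88 on that labelled Mical3. Both calls of Itgb8 use the readings below the floor, and they end when such levels are set to the floor, since the bound against the array labelled vector is under 2-fold. The comparisons share the control arrays, and a single probe set read the gene. With 16 added on the linear scale, which damps differences of dim probe sets, the differences were -1.24 and -1.91 on the array labelled Mical2 and -1.89 and -2.56 on that labelled Mical3.

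Itgb5, the beta subunit of a vitronectin receptor with alpha v, stood at 10.47 on the untreated array, 10.64 on the array labelled vector, 10.36 on the array labelled Mical2 and 8.90 on that labelled Mical3. The first 3 arrays lay within 0.28 of each other and the last was well below them. Its difference was -1.74 from the array labelled vector and -1.57 from the untreated array, or 3.34-fold and 2.97-fold lower. All 4 probe sets of Itgb5 gave this pattern, with differences from -1.93 to -1.70 against the array labelled vector and from -1.69 to -1.52 against the untreated array. The array labelled Mical2 differed from the controls by -0.28 and -0.11.

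Itgb1, the partner of most alpha subunits, was at 10.70 on the untreated array, 9.56 on the array labelled vector, 10.51 on the array labelled Mical2 and 11.18 on that labelled Mical3. It was called lower on the array labelled vector, at -1.14 from the untreated array. The array labelled Mical3 was 1.62 above the array labelled vector but only 0.48 above the untreated array, and so was not called. Its 2 other probe sets at or above the floor on all 4 arrays read 9.96, 8.91, 9.80 and 10.33, and 6.15, 5.49, 6.20 and 6.47, in the same order of arrays. The array labelled vector was the lowest in all 3. The mean over all 6 probe sets, of which 3 lay below the floor, differed by -0.57, which ends the call.

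Itgb2, the beta subunit of leukocyte integrins, lay near the floor, at 5.66, 5.81, 6.0 and 4.85 in the order untreated, vector, Mical2 and Mical3. It was 1.15 lower on the array labelled Mical3, where it was below the floor, than on the array labelled Mical2, which against the floor is at least 1.51-fold. This call ends with levels set to the floor, with 16 added (-0.84) and with the floor at the 75th percentile. Its differences from the controls did not reach 2-fold. Among 5 integrins of leukocytes and platelets outside the list, Itgal, Itgam and Itgax were below the floor on every array. Itga2b, the platelet subunit, read 7.76, 8.46, 7.98 and 7.81, and Itgae 5.26, 5.73, 5.04 and 4.89, and neither was called. Itgb7, which pairs with alpha 4, was at 6.91, 6.71, 7.40 and 7.11. Itgb3, the beta subunit of a vitronectin and fibrinogen receptor, ranged from 5.80 to 6.06, and Itgb4, which pairs with alpha 6 in hemidesmosomes, from 5.50 to 5.71. Both were thus close to the floor and nearly level. Itgb6, an epithelial subunit, was below the floor throughout, with a highest level of 3.92.

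Of the laminin-binding alpha subunits, Itga6 and Itga3 were called between the hairpin arrays and Itga7 was not. Itga6, which pairs with beta 1 or beta 4, was at 8.74 on the untreated array, 8.63 on the array labelled vector, 9.12 on the array labelled Mical2 and 10.20 on that labelled Mical3. The array labelled Mical3 was 1.57 above the array labelled vector and 1.46 above the untreated array, or 2.97-fold and 2.75-fold higher, and 1.08 above the array labelled Mical2. The last became 0.99 with quantile normalization repeated, which ends that call. A second Itga6 probe set gave 7.82, 7.46, 7.96 and 9.21, with the same array highest. Of 11822 genes, 74 differed by more in this direction between the array labelled Mical3 and the untreated array.

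Itga3, another laminin-binding subunit, was at 8.81 on the untreated array, 8.58 on the array labelled vector, 8.11 on the array labelled Mical2 and 9.67 on that labelled Mical3. The hairpin arrays lay on opposite sides of both controls and 1.56 apart. The array labelled Mical3 was 1.09 above the array labelled vector and 0.86 above the untreated array, just short of a call. Its other probe sets also had their highest value there, at 8.14 and 6.18, and their lowest on the array labelled Mical2, at 7.11 and 5.88. Itga7, the laminin-binding subunit known from muscle, was at 5.98, 5.76, 6.34 and 5.82 in the same order of arrays, a range under 2-fold in which the array labelled Mical3 was 0.52 below the array labelled Mical2.

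Of the collagen-binding subunits, Itga1 was measurable. Its level was 6.47 on the untreated array, 4.81 on the array labelled vector, 6.37 on the array labelled Mical2 and 6.27 on that labelled Mical3. The array labelled vector alone was below the floor, at -1.66 from the untreated array as read. Against the floor it was at least 2.08-fold lower, and the other 3 arrays lay within 0.20 of each other. With 16 added the difference was -1.25. The hairpin arrays were 1.56 and 1.46 above the array labelled vector and 0.10 and 0.20 below the untreated array. A second probe set of Itga1 was below the floor on all arrays, and the mean of both differed by -0.845, which ends the call. Itga2 and Itga10 were below the floor, with highest levels of 5.25 and 5.22.

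The subunits that bind the RGD sequence were nearly level. Itga5, which forms the fibronectin receptor with beta 1, ranged from 6.47 to 6.53. Itgav was at 12.40, 11.99, 12.47 and 12.61 on the untreated, vector, Mical2 and Mical3 arrays, so the partner of beta 5 and beta 8 was not lower where those subunits were. A dimmer Itgav probe set read 6.97, 6.84, 7.47 and 8.19. It was 1.35 above the array labelled vector and 1.22 above the untreated array on the array labelled Mical3, where the brighter one was 0.62 and 0.21 above. Itga8 stayed below the floor, with a highest level of 3.61. Itga9, a receptor subunit for tenascin and VCAM-1, ranged from 5.73 to 6.01, and Itga4, the other receptor subunit for VCAM-1, was below the floor with a highest level of 4.42.

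**Figure D1:**
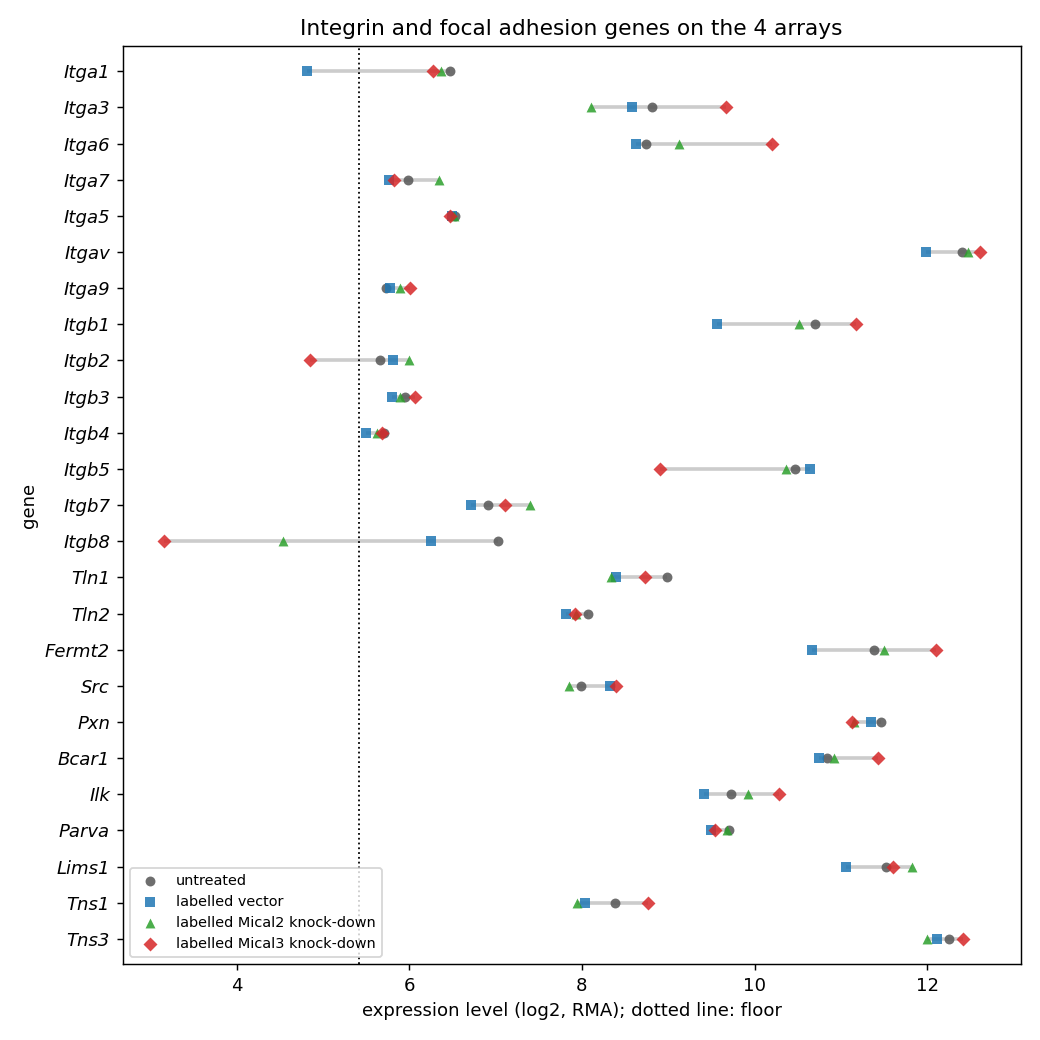
Log2 expression levels (x axis) of the 25 genes that reached the floor (y axis, ordered by role), with 1 symbol per array and the floor of 5.41 as a dotted line. Itgb8 spans from 3.15 to 7.03, Itgb5 is set apart on the array labelled Mical3, and most cytoplasmic adhesion genes span less than 1.

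None of the 11 cytoplasmic proteins was called in the 4 comparisons, where 2.73% to 7.53% of all genes were, all of these shares below 1 in 11, so that the count does not set the group apart from all genes. With the most variable probe set of a gene, Tns1 was called on the array labelled Mical3, and Tns1 and Parva between the hairpin arrays. Fermt2, kindlin-2, which binds the beta tail beside talin, was at 11.39 on the untreated array, 10.67 on the array labelled vector, 11.50 on the array labelled Mical2 and 12.10 on that labelled Mical3. The last was 1.43 above the array labelled vector and 0.71 above the untreated array. A second Fermt2 probe set gave 9.15, 8.31, 9.14 and 9.89, with the same order of its lowest and highest arrays. Tln1, talin-1, was at 8.98, 8.39, 8.34 and 8.73, and its other probe sets differed in pattern, at 8.09, 8.12, 8.29 and 8.36, and at 6.12, 5.72, 5.23 and 5.38. No pattern can therefore be given for Tln1. Tln2, talin-2, ranged from 7.81 to 8.07.

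In the ILK complex, Ilk, its pseudokinase, was at 9.73, 9.41, 9.93 and 10.28 on the untreated, vector, Mical2 and Mical3 arrays. Lims1, which encodes PINCH-1, was at 11.52, 11.06, 11.82 and 11.61. Both genes were lowest on the array labelled vector. Parva, alpha-parvin, was at 9.70, 9.50, 9.68 and 9.54 by its brighter probe set, which covered 0.20 in all. Its dimmer probe set read 8.96, 8.10, 8.56 and 9.80, with the array labelled Mical3 1.70 above the array labelled vector and 0.84 above the untreated array. These probe sets disagree, and the brighter one is of a type open to cross-hybridisation.

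Among kinases and scaffolds, Bcar1, which encodes p130Cas, was at 10.84, 10.75, 10.92 and 11.43, and its second probe set at 8.15, 7.94, 8.22 and 8.86. Both readings were highest on the array labelled Mical3, by 0.68 over the array labelled vector in the first. Src was at 7.99, 8.32, 7.85 and 8.39. Pxn, paxillin, was at 11.47, 11.35, 11.15 and 11.13, slightly lower on the hairpin arrays. Tns1, tensin-1, a link between integrin tails and actin, was at 8.38, 8.03, 7.94 and 8.76. Another Tns1 probe set, at 8.13, 7.45, 8.02 and 9.16, was 1.71 above the array labelled vector and 1.03 above the untreated array on the array labelled Mical3. The remaining Tns1 probe set, at 8.14, 8.12, 7.88 and 8.63, was only 0.51 and 0.49 above them. Tns3 ranged from 12.00 to 12.42.

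**Figure D2:**
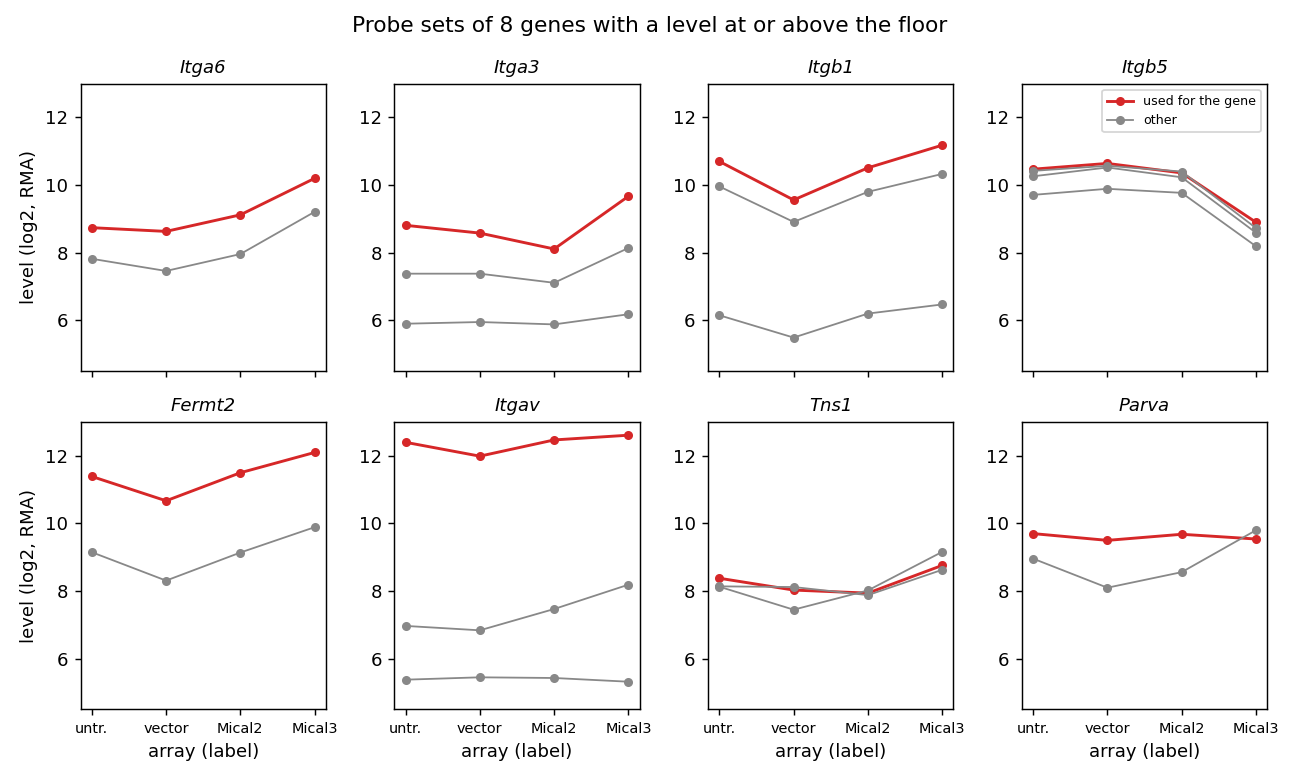
Log2 levels (y axis) of every probe set at or above the floor for 8 genes on the 4 arrays (x axis, by label), with the probe set used for the gene in red. The 4 lines of Itgb5 run together, while the 2 lines of Parva differ on the array labelled Mical3.

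Counted over the comparisons, 1 of 25 members was called on the array labelled Mical2, Itgb8 as lower, where 2.73% of 12072 genes were called and 1.75% were called lower. For the array labelled Mical3 it was 3 of 25, Itga6 as higher and Itgb5 and Itgb8 as lower, with 3.87% of 12011 genes called, 1.38% as higher and 2.49% as lower. With the array labelled vector as the only control, 2 and 7 members were called on the Mical2 and Mical3 arrays, where 10.7% and 11.8% of genes were. With the untreated array alone 1 and 3 were called, with 3.89% and 5.67% of genes. Between the hairpin arrays 4 of 24 members differed, with Itga3 and Itga6 lower and Itgb2 and Itgb5 higher on the array labelled Mical2, against 7.53% of 11928 genes. On the array labelled vector 2 of 25, Itga1 and Itgb1, were lower than on the untreated array. Of 11849 genes 5.83% were called in either direction and 2.57% as lower. With levels below the floor set to the floor, 0 members were called on the array labelled Mical2 and 2, Itga6 and Itgb5, on that labelled Mical3. With so few genes called, the description rests on the values of the named genes and not on these counts.

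**Figure D3:**
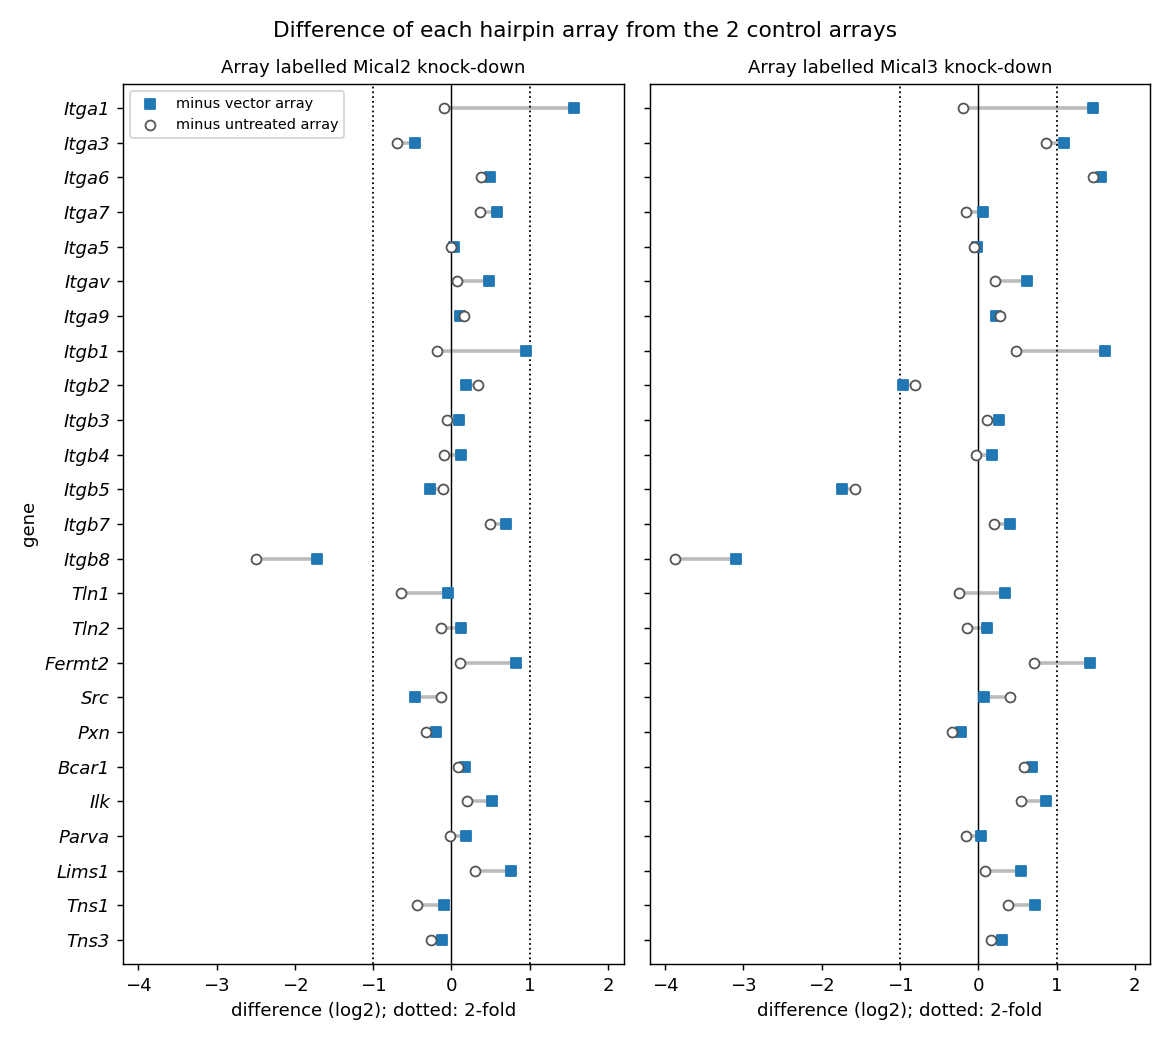
Log2 difference (x axis) of the array labelled Mical2 (left) and the array labelled Mical3 (right) from the array labelled vector (squares) and the untreated array (circles) for 25 genes (y axis), with dotted lines at 2-fold. Itgb8, with hairpin readings below the floor, lies beyond the left line on both sides of the plot, and long grey bars, as for Itga1 and Itgb1, mark genes on which the control arrays differ.

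The median difference of the 25 members was 0.12 on the array labelled Mical2 against the array labelled vector and -0.06 against the untreated array, where all genes at or above the floor had medians of -0.04 and -0.03. For the array labelled Mical3 the medians were 0.30 and 0.11, with -0.03 and 0.01 over all genes. Of the 11 cytoplasmic members, 10 were above the array labelled vector there, and 7 of 11 above the untreated array, while 46.6% and 50.4% of all genes were. For the alpha subunits the medians were 0.62 and 0.21, and for the beta subunits 0.18 and -0.03. The SD between probe sets of the same gene, over 3242 genes with 2 probe sets, was 0.41 for the array labelled Mical3 against the array labelled vector and 0.32 against the untreated array. It measures how probe sets disagree and leaves out the spread between replicates, so it is not the full error of a difference. For the array labelled Mical2 this SD was 0.36 and 0.27.

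The array labelled vector held the lowest value of most of these genes. It stood below the untreated array for 21 of 25 members, with a median difference of -0.21, while 45.4% of all genes were below and their median was 0.03. It held the lowest value of 14 of 25 members, against 27.5% of all genes, and the highest value of Itgb5 alone, against 35.0%. The array labelled Mical3 held the highest value of 12 members, against 27.9% of all genes, and the lowest of 5, against 27.6%. The array labelled Mical2 held the highest value of 4 members, against 22.0% of all genes, and the lowest of 5, against 28.4%. For the untreated array it was the highest of 8, against 15.1%, and the lowest of Itga9 alone, against 16.5%. The epithelial markers Krt8 and Krt18, the monocyte marker Cd14 and 6 of 8 fibroblast and mural markers were also called lower on the array labelled vector than on the untreated array. Of all genes 2.57% were called lower there. The call of Krt18 (-1.01 as read) uses a reading below the floor, 4.84 with 5.85 in untreated cells. Set against the floor it falls short of 2-fold. Of the 5 leukocyte markers that reached the floor, 3 were below the untreated array and 2 above it, with Lyz2 at 5.95 on the array labelled vector and 5.17 on the untreated array. The part of all these markers in the counts above was not tested. Levels of 8 members spanned at least 1 over the arrays, a share to set beside 20.2% of all genes, and 8 others spanned under 0.5.

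**Figure D4:**
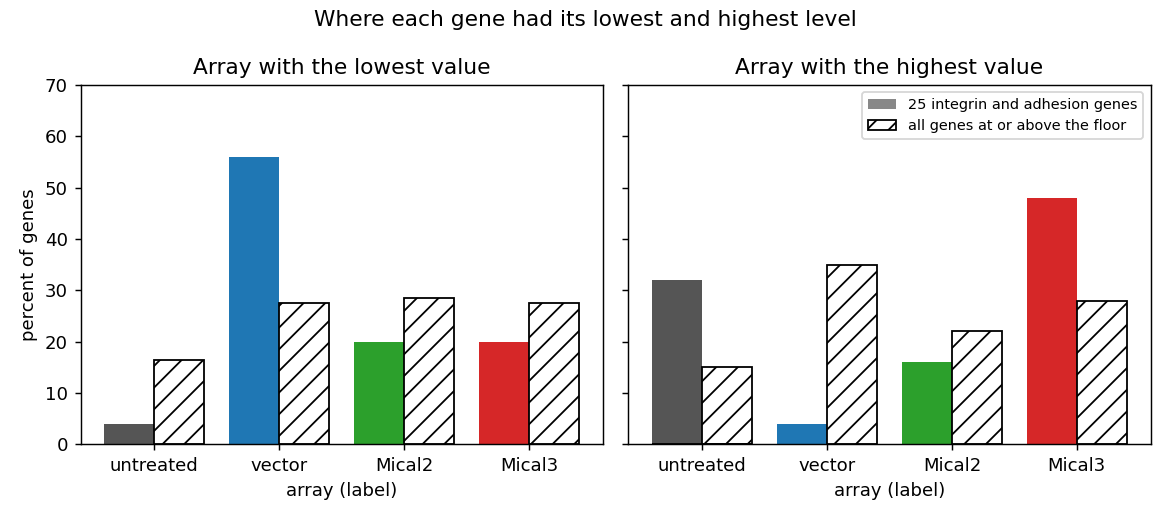
Percent of genes (y axis) with their lowest (left) or highest (right) value on each array (x axis, by label), for the 25 integrin and adhesion genes (filled bars) and for all genes at or above the floor (hatched bars). The array labelled vector holds the lowest value of 56.0% of the 25 genes and the array labelled Mical3 the highest value of 48.0%.

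Other adhesion proteins, on a list of 59 genes outside the members, had 53 at or above the floor. On the array labelled Mical3, Zyx and Lims2 were called higher and Svil lower, 3 of 53 where 3.87% of all genes were called. Zyx, zyxin, a tension-sensitive adhesion protein, was at 10.02, 8.86, 9.90 and 11.10 on the untreated, vector, Mical2 and Mical3 arrays, and was also called lower on the array labelled vector than on the untreated array. Lims2, which encodes PINCH-2, the relative of Lims1 in the ILK complex, was at 5.94, 5.60, 6.40 and 6.97. Svil, supervillin, was lower there, at 9.36, 9.75, 9.28 and 8.23 in that order. Layn, layilin, a talin-binding hyaluronan receptor, was the 1 called of 52 tested on the array labelled Mical2, where 2.73% of all genes were. It was higher there, at 6.49, 6.05, 7.93 and 6.42. Between the hairpin arrays 6 of 53 were called, against 7.53% of all genes. Pdlim1, an actinin-binding protein (11.42, 10.49, 10.91 and 12.37), Ptk2b, the relative of focal adhesion kinase (5.85, 6.17, 5.41 and 6.80), Tgfb1i1, the paxillin relative Hic-5 (8.18, 7.65, 8.04 and 9.04), and Zyx were higher on the array labelled Mical3, and Layn and Svil lower. The list's medians on the array labelled Mical3 were 0.32 from the array labelled vector and 0.20 from the untreated array.

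Among 33 regulators of integrin activity and trafficking at or above the floor, 3 were called higher on the array labelled Mical3 and none lower, where 1.38% of all genes were called higher and 2.49% lower. Dab2, an endocytic adaptor that binds integrin beta tails, was at 10.46, 9.50, 11.01 and 11.61 in the order untreated, vector, Mical2 and Mical3. Kank1, which binds talin at the rim of adhesions, was at 8.45, 7.45, 8.12 and 9.57, and was called lower on the array labelled vector as well. Cav1, the main caveolar protein, was at 12.02, 11.67, 12.36 and 13.13. These 3 were highest on the array labelled Mical3 and lowest on the array labelled vector, a pattern that the list as a whole did not show. The list's medians on the array labelled Mical3 were 0.05 from the array labelled vector, with 18 above it and 15 below, and 0.12 from the untreated array. The array labelled vector was above the untreated array for 20 of the 33 and below it for 13, with a median of 0.08. No gene of this list was called on the array labelled Mical2, where 2.73% of all genes were. Between the hairpin arrays, of 33 tested, Kank1 and Cd47, an integrin-associated membrane protein, were called, where 7.53% of all genes were. Cd47 was at 12.39, 12.84, 12.83 and 11.77.

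The ligands of integrins differed most between the control arrays. Of 29 with a level at or above the floor there, 17 were lower on the array labelled vector than on the untreated array, where 2.57% of all genes were lower. Tgfb1 was higher, at 6.26 on the array labelled vector and 5.24, below the floor, on the untreated array. Nid1, among the lower genes, was below the floor on the array labelled vector. Set against the floor, neither difference reaches 2-fold. Postn, periostin, read 5.56 on the array labelled vector and 8.92 on the untreated array, Col3a1, a fibrillar collagen chain, 10.30 and 13.29, Lamb1, a laminin chain, 7.87 and 10.73, and Col1a2, 11.64 and 14.49. Against both controls, of 29 tested, 1 was called higher and 3 lower on the array labelled Mical3, where 1.38% and 2.49% of all genes were. Nid1, nidogen-1, a basement membrane linker, was higher there (7.06, with 4.49 on the array labelled vector and 6.06 in untreated cells). Col1a2 (6.19), Tnc (7.64, with 8.92 and 8.76) and Ltbp1 (6.64, with 8.94 and 9.73) were lower. Ltbp1 encodes a binding protein of latent TGF-beta. Between the hairpin arrays, of 29 tested, 8 were called higher on the array labelled Mical2 and 2 lower, where 3.81% and 3.72% of all genes were. The higher ones were Col1a2, Col3a1, Col6a1, Col6a3, Tnc, Ltbp1, Postn and Emilin1, and the lower ones Nid1 and Npnt. The largest differences as read, Mical3 minus Mical2, were -7.87 for Col1a2, -3.22 for Ltbp1, -3.10 for Postn and -3.02 for Emilin1. Emilin1, an elastic fibre protein, was at 7.68, 5.52, 8.26 and 5.24 on the untreated, vector, Mical2 and Mical3 arrays. On the array labelled Mical2 1 of 30 tested was called, where 2.73% of all genes were. It was Col6a3, a chain of collagen VI, as higher (7.32, with 4.85 and 5.29).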

How the data were processed

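The authors deposited log2 values for each probe set, computed with RMA (background correction, quantile normalization and summary per probe set), per the submitters' processing notes. Its version and settings are not stated there. RMA compresses differences of dim probe sets, so those are understated. The 45101 probe sets had medians from 5.40 to 5.44 on the 4 arrays. The values were used without further scaling.

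Probe sets with 1 symbol (34945) were kept, and 34741 had it updated through Entrez identifiers against RefSeq genes of GRCm38.p6. Probe sets with several symbols (932) or none (9160) and 64 control probe sets were left out. A gene was represented by its probe set with the highest mean. Genes were called by the size rule given above, since 1 array per group allows no test. The number of arrays limits the precision. The members and lists were chosen with earlier results of these data known.

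All members with a call, or with 2-fold between any arrays, have all 4 levels printed. From each other list, genes called on a hairpin array are named, at most 8, and at least the 4 with the largest differences, where as many were called, between the vector and untreated arrays and between the hairpin arrays. Alternatives changed the control, fold, floor, probe set choice, normalization and offset. Setting levels below the floor to the floor was chosen after seeing the data. Python 3.11.15, numpy 2.4.6, pandas 2.3.3, statsmodels 0.14.6 and matplotlib 3.10.9 were used.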

Additional observations from a re-analysis of the deposited data

Results flagged for a closer look

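For 2 genes the hairpin arrays, as read, lay on opposite sides of both control arrays and at least 2-fold apart. The difference between them was not tested, since each group has 1 array. Itga3 was 1.56 higher on the array labelled Mical3 than on the array labelled Mical2, and its 3 probe sets had the same order of these arrays. Itgb2 was lower on the array labelled Mical3, with a difference of -1.15 as read, which against the floor is at least 1.51-fold. Itgb2 was read by a single probe set that lies near the floor on 3 arrays and below it on the array labelled Mical3.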

How the results depend on the processing

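Under the alternatives run, none of the called differences reversed. Of 64 alternative counts, 49 were within 1.5 times of the reported one. For the array labelled Mical2 (1 member called, Itgb8) the count was 0 with the floor at the 75th percentile, 0 with levels below the floor set to the floor, and 2 with the array labelled vector as the only control, which adds Itga1. For the array labelled Mical3 (3 called) it was 7 at 1.5-fold, 1 at 3-fold (Itgb8), 5 with the most variable probe set, which adds Itgav and Tns1, 7 with the array labelled vector as the only control and 5 with the mean of both controls. With the higher floor or with levels set to the floor it was 2, which loses Itgb8. For the array labelled vector (2 called) it was 5 at 1.5-fold, 1 at 3-fold, 1 with the floor at the 75th percentile, which loses Itga1, and 0 with the mean of all probe sets. Between the hairpin arrays (4 called) it was 7 at 1.5-fold and 0 at 3-fold. There Itgb2 was lost with the higher floor, with levels set to the floor and with 16 added, Itga6 with quantile normalization repeated (0.99) and Itga3 with the mean of all probe sets (0.96). Members lowest on the array labelled vector numbered 9 of 16 with the higher floor. The median member differences moved by more than 1.5 times under some alternatives for all pairs but the untreated and the vector array. From the array labelled vector they ran from 0.11 to 0.41 for the array labelled Mical2 (0.12 reported) and from 0.23 to 0.585 for that labelled Mical3 (0.30). From the untreated array they ran from -0.125 to 0.0 (-0.06), from 0.075 to 0.295 (0.11) and, for the array labelled vector, from -0.245 to -0.175 (-0.21). Between the hairpin arrays, Mical3 minus Mical2, they ran from 0.045 to 0.405 (0.12). No paired analysis was possible because each group has 1 array. Differences of members near the floor (Itgb2, Itgb3, Itgb4, Itga7, Itga9) are compressed and rest on dim readings.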
